A study of Mus musculus with 16 samples.

Results

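The growth arrest genes described here are Cdkn1a (encoding p21), Cdkn1b (p27), Rb1, Mdm2, Ccng1, Sesn1 and Btg2. All probe sets annotated to each of these symbols alone were taken from both chips, which gave 11 probe sets for the 7 genes, out of 24833 probe sets and 13674 genes. Transcripts were measured on Affymetrix arrays in cultured mouse endothelial cells, in 4 conditions that cross VE-cadherin (VEC, the product of Cdh5 and the cadherin of endothelial adherens junctions) with cell density. The labels trace the cells of all conditions, VEC-positive ones included, to embryonic stem cells in which both copies of Cdh5 carry a null mutation. The groups were sparse VEC-null, confluent VEC-null, sparse VEC-positive and confluent VEC-positive cells, all starved for 36 h in MCDB 131 medium with BSA. Details not given in the sources used here include the origin of VEC in the VEC-positive cells and the number of clones behind each label. Each condition had 2 arrays of chip A (MG_U74Av2) and 2 of chip B (MG_U74Bv2), in all 16 arrays, from 15 µg of total RNA. The series text says that each cRNA sample went on 2 copies of the chips, and the 2 replicates of a condition are taken here as these copies, although no label says so of single arrays. P-values below, apart from those of a fit on the mean of the copies, then measure only the spread between hybridisations and not that between cultures. The study selected genes that are raised where VEC is expressed and gathered at cell contacts, a state its text assigns to confluent VEC-positive cells.

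As background, p21 and p27 bind cyclin-dependent kinases (CDKs) and block them, which keeps the retinoblastoma protein Rb1 unphosphorylated and its E2F partners silent. The transcription factor p53 raises p21, Mdm2, cyclin G1 (Ccng1), sestrin 1 (Sesn1) and Btg2, and Mdm2 in turn marks p53 for degradation. Endothelial cells that touch each other normally stop dividing, which is known as contact inhibition, and lack of serum is a separate cause of arrest that was applied to all groups here.

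Sequences upstream of the genes are shown because several members moved together and p53, FoxO and Sp1 are known regulators of the group. The RefSeq table (build GRCm38.p6) held 8 windows for 6 of the 7 genes, each with 250 bases before and 50 bases after an annotated start, and Rb1 had none. Each window was searched on both strands for the p53 half-site (10 bases), the FoxO motif GTAAACA and the GC box GGGCGG. A pair of abutting p53 half-sites (20 bases, at most 2 mismatches, with the C and G of each half-site kept) was added after the windows had been seen. Capitals mark matches in the 250 upstream bases printed here, 5′ to 3′ on the gene's strand.
Cdkn1a, upstream start, chr17:29090729-29090978, plus strand: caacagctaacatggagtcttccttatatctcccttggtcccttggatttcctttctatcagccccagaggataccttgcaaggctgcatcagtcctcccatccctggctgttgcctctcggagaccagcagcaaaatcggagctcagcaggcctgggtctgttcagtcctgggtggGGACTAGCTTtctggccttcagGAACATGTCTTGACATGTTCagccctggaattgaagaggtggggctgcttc
Mdm2, chr10:117710759-117711008, minus strand: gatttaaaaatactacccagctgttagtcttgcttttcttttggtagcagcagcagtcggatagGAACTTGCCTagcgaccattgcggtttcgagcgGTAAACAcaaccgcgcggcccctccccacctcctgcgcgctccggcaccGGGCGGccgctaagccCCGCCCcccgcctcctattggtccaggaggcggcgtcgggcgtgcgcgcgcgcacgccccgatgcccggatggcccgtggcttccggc
Ccng1, chr11:40755287-40755536, minus strand: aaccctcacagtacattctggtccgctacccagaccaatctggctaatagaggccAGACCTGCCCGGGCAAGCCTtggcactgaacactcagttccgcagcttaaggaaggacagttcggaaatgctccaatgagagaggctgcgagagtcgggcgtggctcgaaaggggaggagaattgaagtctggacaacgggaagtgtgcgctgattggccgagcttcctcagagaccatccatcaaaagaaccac
Btg2, chr1:134079156-134079405, minus strand: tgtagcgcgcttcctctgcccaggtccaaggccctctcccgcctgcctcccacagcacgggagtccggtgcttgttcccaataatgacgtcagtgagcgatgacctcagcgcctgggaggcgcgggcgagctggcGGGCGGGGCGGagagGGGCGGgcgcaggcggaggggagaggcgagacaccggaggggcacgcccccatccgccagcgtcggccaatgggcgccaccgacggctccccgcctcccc
The upstream Cdkn1a window held the p53 pair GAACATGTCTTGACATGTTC with 1 mismatch, and a further half-site, GGACTAGCTT. The Ccng1 window held the pair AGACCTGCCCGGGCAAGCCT, also with 1 mismatch. Over all 32851 windows of this length, 8.36% held a half-site and 0.326% held a pair. The Mdm2 window held 1 half-site, 1 FoxO motif and 2 GC boxes, and the p53 response elements known from the literature for Mdm2 lie within the gene, outside this window. The Btg2 window held 3 GC boxes, of which a pair overlaps by 1 base, and neither of the other motifs. GC boxes were found in 35.7% of all windows and the FoxO motif in 3.65%. The window at the downstream start of Cdkn1a held 2 GC boxes and that of Cdkn1b held 1. Sesn1 had 2 windows, both with 4 GC boxes, one with a FoxO motif after the start and the other with a p53 half-site. A match describes letters and is not a measured binding site.

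Signals are MAS5 intensities, scaled by the authors to a common target on each array. Copies of a cRNA sample correlated over all probe sets with r between 0.9505 and 0.9889. Cdh5 is the targeted gene and had 1 probe set. Its signal was 1268.5 ± 19 (SD, n = 2 copies) in sparse VEC-null and 1399.1 ± 92 in sparse VEC-positive cells, and 2607.9 ± 140 in confluent VEC-null and 2566.5 ± 58 in confluent VEC-positive cells. The changes with VEC, 0.14 on the log2 scale in sparse (limma adjusted p = 0.26) and -0.02 in confluent cells (adjusted p = 0.87), did not pass, and since the place of its probes relative to the deleted part is unknown here, it checks no label. VEC-null and VEC-positive are therefore names as labelled. All 14 endothelial markers on the chips passed the level filter, although Pecam1 was dim (118 to 180.8 in group means). Their summed signal was 25045 to 25848 in sparse VEC-null, 85278 to 86216 in confluent VEC-null, 43929 to 46283 in sparse VEC-positive and 91232 to 92123 in confluent VEC-positive cells. Of the marker lists of other cell types, 1 of 9 embryonic stem cell, 7 of 13 smooth muscle and fibroblast, 2 of 11 blood and 2 of 11 epithelial genes passed the level filter. The summed signals of the smooth muscle and fibroblast list were 10793 to 12850 in sparse VEC-positive cells and 3366 to 4363 in the other groups. S100a4 carried this gap, since without it the list summed to 2084 to 2605 in sparse VEC-positive cells and 2204 to 2744 in the others, and Acta2, smooth muscle actin, had a mean of 133.1 in sparse VEC-positive and 371.4 in sparse VEC-null cells. The epithelial list summed to 1516 to 1712 in sparse VEC-positive cells and 671 to 958 elsewhere, and the stem cell list to 419 to 654 over all arrays. The blood list summed to 1644 to 1896 in confluent VEC-null cells and 1002 to 1262 in the others. Cd68, of the blood list, had a mean of 910 in confluent VEC-null cells and 273.2 to 352.9 in the others. Pdgfrb, of the smooth muscle and fibroblast list, had 327.6 in confluent VEC-null cells, through which alone it passed the level filter, and 9.5 to 13 in the others. Krt19, a keratin, had a mean signal of 904.7 in sparse VEC-positive cells and of 3.9 to 5.6 in the others. With VEC, 2 of the 14 endothelial markers were higher in confluent cells (Ptprb by 1.57 on the log2 scale, and Vwf by 5.16, which passed the level filter through confluent VEC-positive cells alone) and 3 in sparse cells, and with density 9 were higher in VEC-positive and 10 in VEC-null cells. The shares of all tested probe sets called higher in these comparisons, in the same order, were 4.31%, 5.43%, 8.16% and 9.1%. The actin 3′ to 5′ ratio on chip A, a sign of RNA length, was 1.264 and 1.335 in confluent VEC-positive cells and 1.109 to 1.246 in the others, and on chip B it was 1.214 and 1.284 against 1.207 to 1.309. The Gapdh ratio on chip B was 1.226 and 1.136 in confluent VEC-positive cells against 0.91 to 1.001, and on chip A 1.006 and 0.968 against 0.903 to 0.987. The part of these markers and ratios in the results below was not tested, and in such bulk samples fewer cells of a type and less RNA per cell cannot be told apart.

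Differences were tested with limma on log2(signal + 50), so every log2 change and fold below is on that scale. A probe set was tested if 1 or more of the group means exceeded its chip's median level (159.4 for chip A, 235.1 for chip B). It passed at an adjusted p below 0.05 with a log2 change of at least 1, and "rose", "fell", "higher" and "lower" as calls refer to this rule. Of the 7 genes, 6 were tested. Cdkn1a, Mdm2, Ccng1 and Btg2 lay above the filter in all 4 groups and Sesn1 and Rb1 in 3, while no probe set of Cdkn1b reached it.

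Cdkn1a (chromosome 17, 29090979 to 29100722 on GRCm38.p6) encodes p21, which binds cyclin-CDK complexes and the replication clamp PCNA. The signals of its representative probe set in the array copies were 608 and 613 in sparse VEC-null and 417.7 and 484.5 in confluent VEC-null cells. They were 3334.9 and 3381.9 in sparse VEC-positive and 4779.1 and 4826.4 in confluent VEC-positive cells. The 4 conditions did not overlap, with confluent VEC-null cells lowest and confluent VEC-positive cells highest. The gene rose with VEC 9.71-fold in confluent cells (log2 change 3.28, SE 0.09, limma adjusted p = 9.4e-08) and 5.16-fold in sparse cells (log2 change 2.37, SE 0.09, adjusted p = 3.7e-07). Its response to density did not reach the fold threshold in either line, with log2 changes of 0.51 in VEC-positive and -0.40 in VEC-null cells.

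The other probe set of Cdkn1a, also on chip A, gave a different picture of density. Its signals were 487.4 and 442.6 in sparse VEC-null, 813.5 and 949.1 in confluent VEC-null, 1759.8 and 1748.3 in sparse VEC-positive and 1906.9 and 1785.7 in confluent VEC-positive cells. Both VEC-positive conditions again lay above both VEC-null conditions, with no overlap. The change with VEC passed in confluent cells, by 1.03 (SE 0.11, limma adjusted p = 9.5e-05), and in sparse cells, by 1.81 (SE 0.11, adjusted p = 2.6e-06). In VEC-null cells the change from sparse to confluent was 0.85 here against -0.40 for the representative one, and the difference between the lines' density responses was -0.78 here (SE 0.15) against 0.91 (SE 0.13). The sign of the density response of Cdkn1a in VEC-null cells, and of its difference between the lines, therefore depends on the probe set, and neither probe set passed in these comparisons.

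Cdkn1b (chromosome 6, 134920401 to 134925525) encodes p27, which holds CDK2 inactive in resting cells. Its first probe set gave 18.4 and 7.1 in sparse VEC-null, 92.5 and 75.3 in confluent VEC-null, 19.2 and 32.2 in sparse VEC-positive and 13.7 and 32.4 in confluent VEC-positive cells. Confluent VEC-null cells were highest, and the other 3 conditions overlapped with a neighbour in the order. Its second probe set gave 81.8 and 109.1 in sparse VEC-null, 44.8 and 50.3 in confluent VEC-null, 41 and 51.9 in sparse VEC-positive and 55.5 and 51.9 in confluent VEC-positive cells. Here sparse VEC-null cells were highest, so the probe sets disagreed on the order of the conditions. Neither reached the level filter in any group, the gene was not tested, and no level of p27 transcripts can be read from these dim signals.

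Rb1 (chromosome 14, 73192858 to 73325951) encodes the retinoblastoma protein, on which CDK inhibition acts. Its representative probe set gave 183.6 and 202.3 in sparse VEC-null, 176.3 and 132.2 in confluent VEC-null, 336 and 313.2 in sparse VEC-positive and 400 and 454.7 in confluent VEC-positive cells. The conditions did not overlap, and both VEC-positive conditions lay above both VEC-null conditions. Rb1 rose with VEC in confluent cells, 2.35-fold (log2 change 1.23, SE 0.15, limma adjusted p = 0.00029), while the change in sparse cells, 0.63, did not reach the fold threshold (adjusted p = 0.01). The call in confluent cells was lost with an offset of 200 in place of 50 (0.83) and less the chromosome 14 median (1.00). Its dimmer probe set lay under the filter, at 38.7 to 65.7 in VEC-null and 94.2 to 138.7 in VEC-positive arrays.

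Mdm2 (chromosome 10, 117688875 to 117710758) encodes the ubiquitin ligase that turns over p53 and is itself raised by p53. Its probe set gave 1584.9 and 1348.8 in sparse VEC-null, 590.4 and 637.5 in confluent VEC-null, 6837 and 6950.9 in sparse VEC-positive and 4557.5 and 4565.7 in confluent VEC-positive cells. Sparse VEC-positive cells were highest and confluent VEC-null cells lowest, with no overlap between conditions. Mdm2 rose with VEC 6.95-fold in confluent cells (log2 change 2.80, SE 0.09, limma adjusted p = 1.1e-07) and 4.59-fold in sparse cells (log2 change 2.20, SE 0.09, adjusted p = 4.9e-07). With density it fell 2.28-fold in VEC-null cells (log2 change -1.19, adjusted p = 5.8e-06), and in VEC-positive cells the change was -0.59, under the fold threshold.

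Ccng1 (chromosome 11, 40748552 to 40755309) encodes cyclin G1, a p53 target that recruits a phosphatase to Mdm2. Its signals were 523.5 and 545.1 in sparse VEC-null, 159.8 and 189.7 in confluent VEC-null, 1843.9 and 2316 in sparse VEC-positive and 1376.5 and 1285.3 in confluent VEC-positive cells. The order of the conditions was that of Mdm2, again without overlap. Ccng1 rose with VEC 6.15-fold in confluent cells (log2 change 2.62, SE 0.13, limma adjusted p = 1.3e-06) and 3.62-fold in sparse cells (log2 change 1.86, SE 0.13, adjusted p = 7.3e-06). With density it fell in VEC-null cells, 2.60-fold (log2 change -1.38, adjusted p = 1.9e-05), and had a change of -0.62 in VEC-positive cells, under the fold threshold. With an offset of 200 the change in VEC-null cells was -0.97 and the call was lost.

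Sesn1 (chromosome 10, 41810574 to 41908436) encodes sestrin 1, a stress-induced protein that restrains mTORC1 and is a target of p53 and of FoxO factors. Its probe set on chip A gave 200.5 and 231.5 in sparse VEC-null, 141.1 and 127.9 in confluent VEC-null, 193.7 and 216.6 in sparse VEC-positive and 648.1 and 651.1 in confluent VEC-positive cells. Confluent VEC-positive cells stood alone at the top, and the sparse cells of both lines overlapped. Sesn1 rose with VEC in confluent cells, 3.79-fold (log2 change 1.92, SE 0.14, limma adjusted p = 1.1e-05), and in sparse cells the change was -0.06 (SE 0.14, adjusted p = 0.77). It rose with density in VEC-positive cells, 2.74-fold (log2 change 1.46, adjusted p = 2.2e-05). In VEC-null cells the change with density was -0.53, under the fold threshold. Its probe set on chip B lay at 1.7 to 46.9 on all arrays, under the filter.

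Btg2 (chromosome 1, 134074865 to 134079155) encodes an antiproliferative protein that brings the CCR4-NOT deadenylase to messenger RNAs and binds the methyltransferase Prmt1. Its signals were 551.6 and 406.5 in sparse VEC-null, 1961.5 and 1106.8 in confluent VEC-null, 2179.2 and 2091.5 in sparse VEC-positive and 3917.7 and 4644.9 in confluent VEC-positive cells. The conditions stand here from lowest to highest, without overlap, although the confluent VEC-null copies lay far apart. Btg2 rose with VEC 2.83-fold in confluent cells (log2 change 1.5, SE 0.23, limma adjusted p = 0.00082) and 4.17-fold in sparse cells (log2 change 2.06, SE 0.23, adjusted p = 9.9e-05). With density it rose 2.91-fold in VEC-null cells (log2 change 1.54, adjusted p = 0.00034). The change in VEC-positive cells was 0.98 (adjusted p = 0.0055), just under the fold threshold, and it passed without the replicate 1 copies of sparse VEC-positive cells (1.01) or of confluent VEC-positive cells (1.10).

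**Figure D1:**
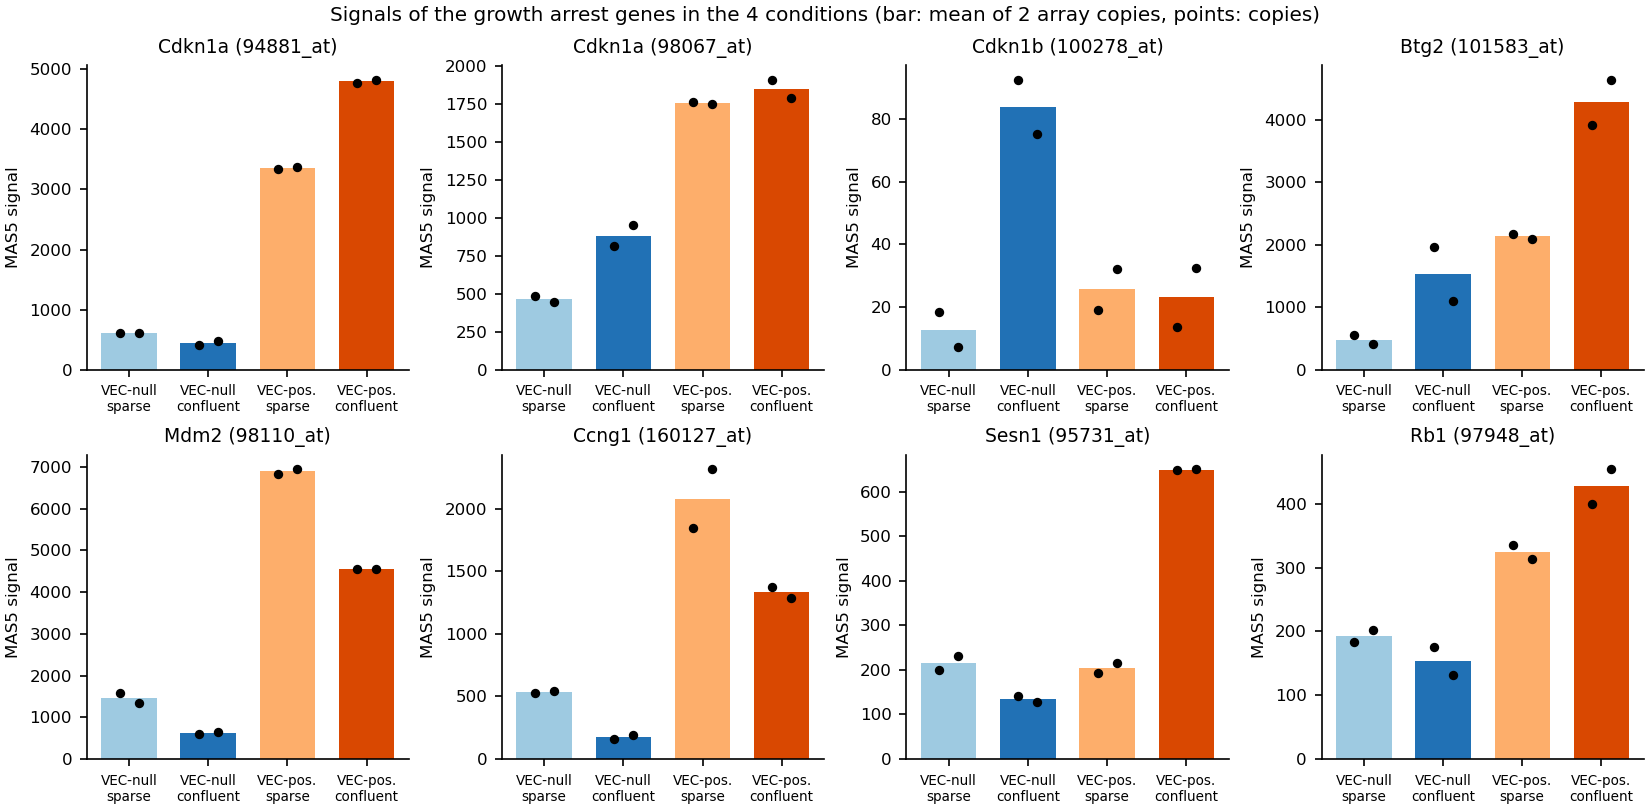
MAS5 signal (linear axis from 0, scaled separately in each panel) of 8 probe sets of the growth arrest genes in the 4 conditions. Bars are means of 2 array copies and points the copies: for Cdkn1a, Mdm2, Ccng1, Btg2 and Rb1 both VEC-positive conditions lie above both VEC-null ones, for Sesn1 confluent VEC-positive cells lie above the other 3 conditions, and Cdkn1b is shown by 1 of 2 dim, untested probe sets that disagree on the order.

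In confluent cells, the comparison the study's text is about, all 6 tested genes were higher in the cells labelled VEC-positive, 5 of them under every alternative run on this comparison and Rb1 not with an offset of 200 or less its chromosome's median. Over all 14246 probe sets tested, 4.31% were called higher, 3.62% lower and 7.93% in either direction. The members were chosen with earlier results of these data known, so their count beside this share is a description and no test. Among the 9207 genes tested, ranked by log2 change from the highest, Cdkn1a was number 16, Mdm2 number 26 and Ccng1 number 28. Sesn1 ranked 73, Btg2 161 and Rb1 275. The median log2 change of all tested genes was -0.01.

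In sparse cells, Cdkn1a, Mdm2, Btg2 and Ccng1 were higher in the cells labelled VEC-positive, 4 of the 6 tested genes. The share of all probe sets called higher was 5.43%, and 9.7% were called in either direction. Their ranks were 41, 56, 66 and 91 among 9207 genes. Sesn1 and Rb1 did not pass. The arrays of this comparison are others than those of the confluent cells. The share called lower was 4.27%, and no member was among them.

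With density, the members did not move as a group. In VEC-positive cells Sesn1 was higher when confluent, 1 of 6, where 8.16% of all probe sets were called higher, 7.22% lower and 15.4% in either direction. In VEC-null cells Btg2 was higher and Mdm2 and Ccng1 were lower when confluent, where 9.1% of all probe sets were called higher, 7.41% lower and 16.5% in either direction. The count in VEC-positive cells is near the share of all probe sets.

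The density response (confluent over sparse) of VEC-positive cells minus that of VEC-null cells passed for Sesn1 at 1.98 (SE 0.20, limma adjusted p = 0.00013). Of all probe sets, 12.2% passed in this comparison, 5.91% in the positive and 6.34% in the negative direction. For Mdm2 and Ccng1 the differences were 0.60 (adjusted p = 0.0087) and 0.76 (adjusted p = 0.013), under the fold threshold. Cdkn1a at its representative probe set had 0.91 (adjusted p = 0.00094), Rb1 0.61 (adjusted p = 0.065) and Btg2 -0.56 (adjusted p = 0.22). The difference of Cdkn1a passed without the replicate 2 copies of confluent VEC-null cells, at 1.01.

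**Figure D2:**
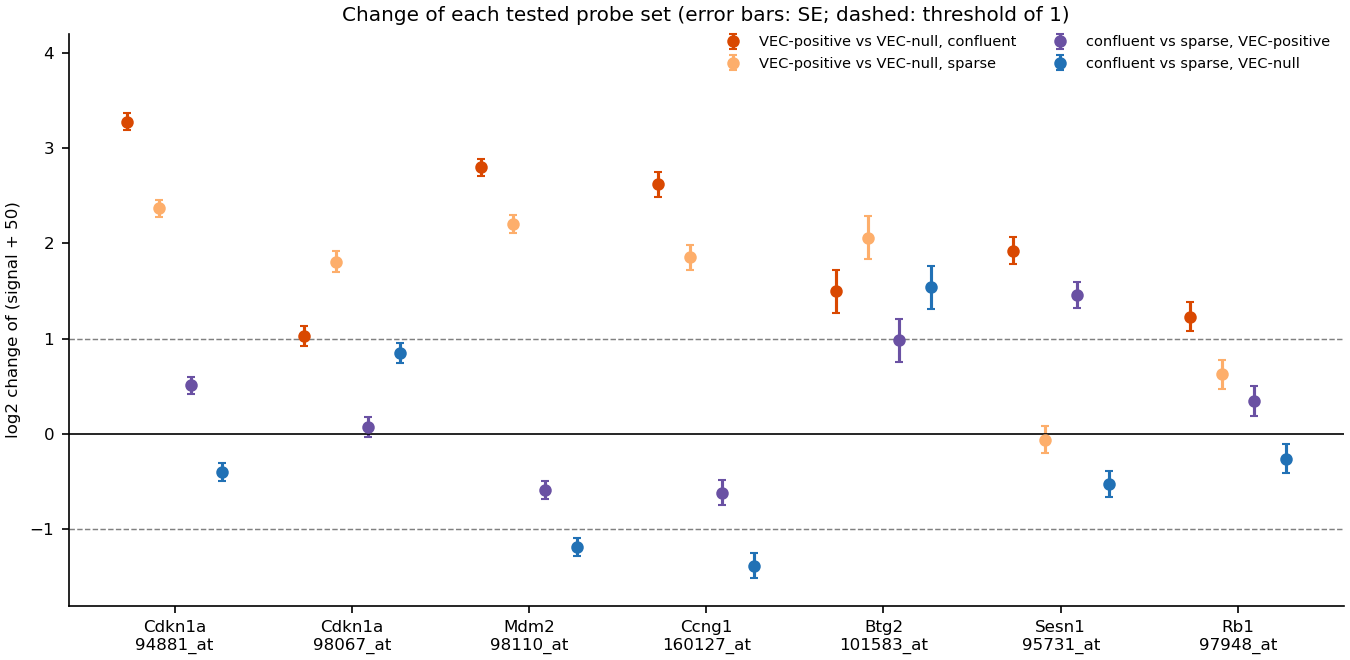
Log2 change of (signal + 50) with its SE for each tested probe set of the growth arrest genes in 4 comparisons, with dashed lines at a change of 1 in either direction. The orange points (VEC-positive over VEC-null) lie above 1 except for Sesn1 and Rb1 in sparse cells, while the purple and blue points (confluent over sparse) lie on both sides of 0, and the 2 probe sets of Cdkn1a have blue points of opposite sign (-0.40 and 0.85).

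A fit on the mean of the copies, with 1 value per cRNA sample and additive terms for VEC and density, left 1 residual degree of freedom. That residual is the difference between the lines' density responses, with any spread between cultures mixed in. P-values of this fit also lean on a prior of 7.878 degrees of freedom on chip A, and do not measure spread between cultures alone. The fit called Cdkn1a (log2 change 2.82, SE 0.34, limma adjusted p = 0.0041), Mdm2 (2.50, SE 0.33, adjusted p = 0.0058), Ccng1 (2.24, SE 0.31, adjusted p = 0.007) and Btg2 (1.78, SE 0.32, adjusted p = 0.029) higher with VEC. These are 4 of 6, where 1.31% of all probe sets were called higher, 0.73% lower and 2.04% in either direction. Sesn1 and Rb1 had 0.93 each, with adjusted p = 0.41 and 0.19. For density, Btg2 was called at 1.26 (SE 0.32, adjusted p = 0.039), where 5.77% of all probe sets were called higher, 4.06% lower and 9.83% in either direction. This call was lost with an offset of 200, with no level filter, without replicate 2 of sparse VEC-null cells and without replicate 1 of confluent VEC-null cells. Ccng1 and Mdm2 had density effects of -0.999 (adjusted p = 0.077) and -0.89 (adjusted p = 0.13).

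Mdm2 and Sesn1 lie on chromosome 10 and Rb1 on chromosome 14, where genes as a whole were shifted in VEC-positive cells. The median log2 change in confluent cells was 0.45 over 451 genes of chromosome 10 and 0.23 over 321 genes of chromosome 14. Less the chromosome's median, Mdm2 remained at 2.35 in confluent and 1.83 in sparse cells and Sesn1 at 1.47 in confluent cells, all past the threshold. Rb1 came to 1.00, just under it, and was no longer called. The 40 tested genes nearest to Mdm2 had a median of 0.74 in confluent and 0.51 in sparse cells, and 14 and 11 of them were called higher. Against these neighbours Mdm2 stood at 2.06 and 1.69. The neighbours of Sesn1 had a median of 0.02 in confluent cells and those of Rb1 of 0.23. For Cdkn1a, Ccng1 and Btg2 the medians of the 40 neighbours were -0.09, -0.20 and -0.03. Of the genes of other lists called higher with VEC in confluent cells, Ptprb, Apaf1, Cdk1, Prim1 and Gadd45b also lie on chromosome 10. Apaf1 (1.09) and Cdk1 (1.17) are nearest the threshold among these, and their changes are given without the chromosome's median taken off. The part of the chromosome shifts in the results was not tested beyond these values.

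**Figure D3:**
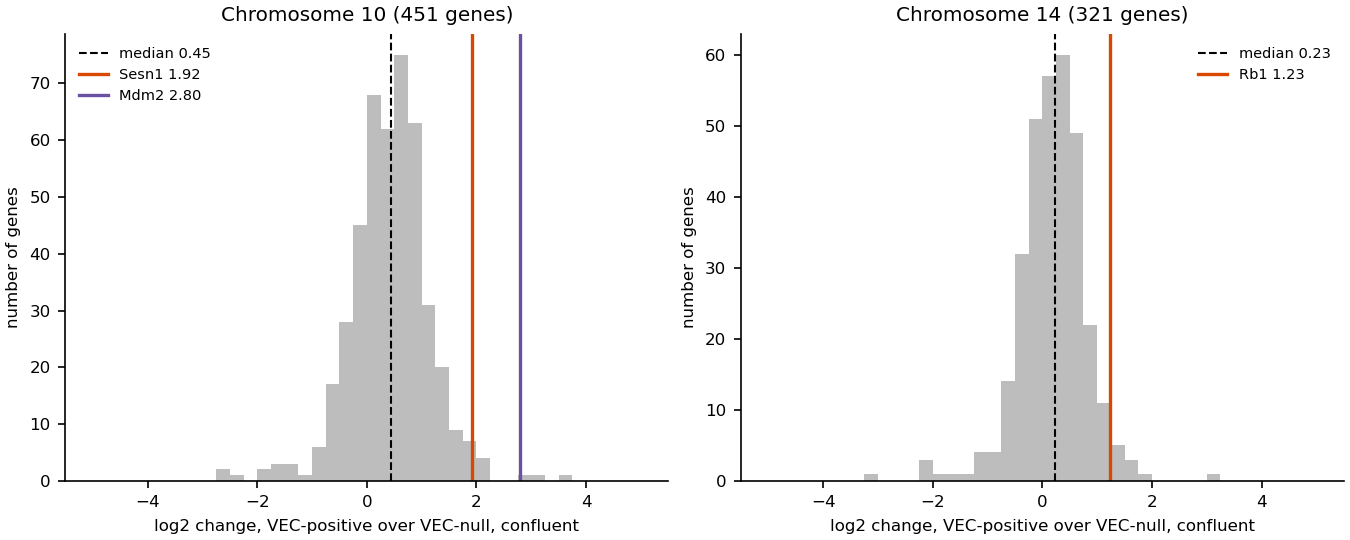
Number of genes (vertical axis) by log2 change of VEC-positive over VEC-null confluent cells (horizontal axis) on chromosomes 10 and 14. Mdm2 (2.80) and Sesn1 (1.92) lie to the right of the chromosome 10 median of 0.45, and Rb1 (1.23) to the right of the chromosome 14 median of 0.23.

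Other p53 targets are genes outside the members that p53 is known to raise, among them apoptosis and repair genes. Of 35 listed, 27 were on the chips and 23 were tested. In confluent cells 8 were higher in the VEC-positive cells and 15 did not pass, with a median of 0.60 against -0.01 for all genes. The share of all probe sets called higher there was 4.31%. This list and those below were also chosen with earlier results known, so their counts and medians carry no test of the lists. Beside the counts of each list stand the shares of all probe sets called higher and lower. With VEC they were 4.31% and 3.62% in confluent and 5.43% and 4.27% in sparse cells. With density they were 8.16% and 7.22% in VEC-positive and 9.1% and 7.41% in VEC-null cells. Trp53inp1, a p53-induced nuclear protein, rose from a mean signal of 739.6 ± 47 (SD, n = 2 copies) to 4057.4 ± 180, which is 2.38 on the log2 scale (SE 0.10, adjusted p = 6.3e-07 by limma). Zmat3, a zinc finger RNA-binding protein, rose by 2.27, from 747.7 ± 74 to 3792.1 ± 120. Ckap2, a mitotic spindle protein, rose by 2.17, and Phlda3, an inhibitor of Akt, by 1.92. The other genes called were Gtse1, Ercc5, Apaf1 and Ei24.

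In sparse cells 8 of the 23 were again higher, and 15 did not pass, with a median of 0.79 against -0.03 for all genes. The share of all probe sets called higher there was 5.43%. Trp53inp1 rose by 2.28 (SE 0.10, limma adjusted p = 6.8e-07), Fas, the death receptor, by 1.68 (SE 0.23), Pmaip1, which encodes the BH3-only protein Noxa, by 1.41 (SE 0.35) and Zmat3 by 1.38 (SE 0.09). Fas and Pmaip1 were above the level filter in sparse VEC-positive cells alone (160.3 ± 13 and 282 ± 41), so they could be tested only through the group where they are high, and the other 6 of the 8 do not depend on this. Of 2 further probe sets of Trp53inp1, 1 passed in confluent cells (1.86) and both in sparse cells (1.498 and 1.16). The one with 1.86 and 1.498 was tested through confluent VEC-positive cells alone (mean 282), the group where it is high. Its means in sparse cells, 20.2 and 148.7, lay under the filter. With density, 3 were higher and 3 lower in VEC-positive cells, led by Dram1 (2.14) and Gadd45a (-1.55), and 1 of the lower ones, Pmaip1, was tested through sparse VEC-positive cells alone. In VEC-null cells 2 were higher and 3 lower, led by Tap1 (1.78) and Dram1 (1.77). Dram1 passed the level filter through the confluent groups alone, where it is high, with means of 104.8 and 185.9 in sparse VEC-null and sparse VEC-positive cells.

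**Figure D4:**
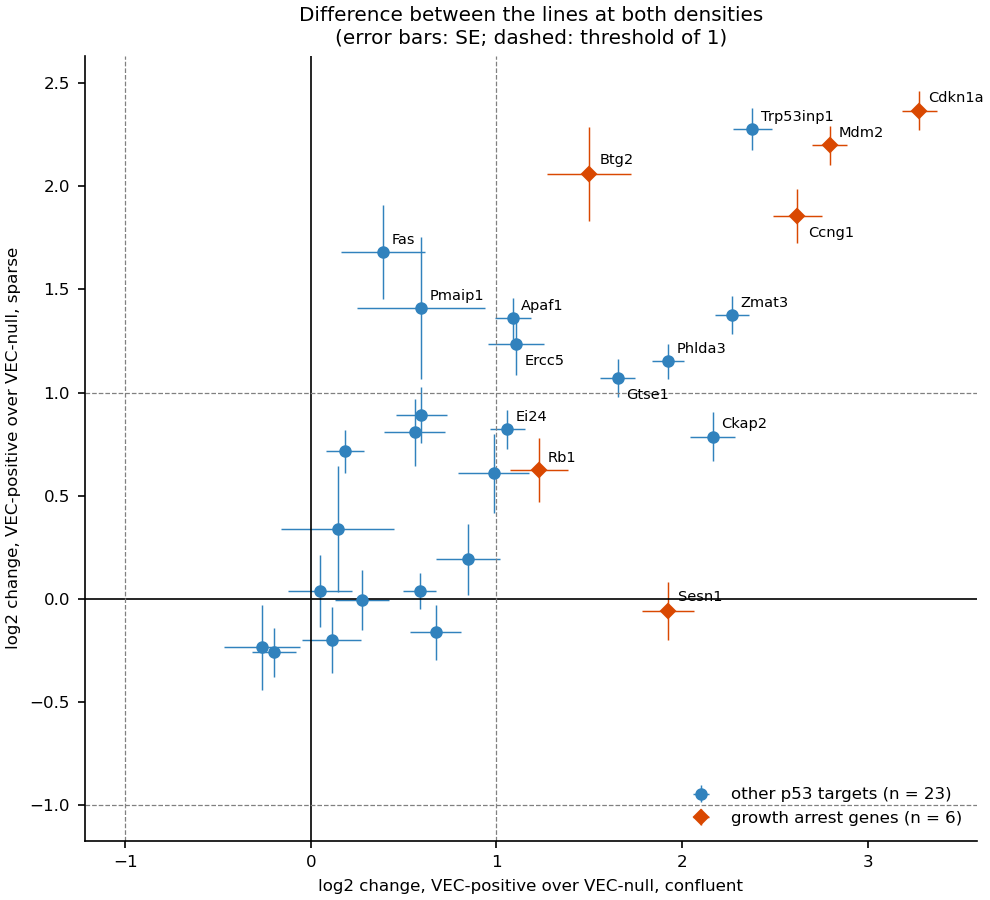
Log2 change of VEC-positive over VEC-null cells in confluent (horizontal) and sparse cells (vertical), with SE, for 6 tested growth arrest genes (diamonds) and 23 other p53 targets (circles). Cdkn1a, Mdm2, Ccng1, Btg2 and Trp53inp1 lie past 1 on both axes, and Sesn1 lies near 0 on the vertical axis (-0.06).

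The regulators of p53 itself include its kinases, acetylases and the Mdm2 relative Mdm4. None of the 16 tested passed limma's threshold in confluent cells, where 4 had an unadjusted p under 0.05, and in sparse cells Chek1, a checkpoint kinase, was lower in VEC-positive cells (-1.21, SE 0.14, limma adjusted p = 0.00012). With density 2 were higher and 1 lower in VEC-positive cells, led by Chek2 (1.10), and 2 higher and 2 lower in VEC-null cells, led by Atr (-1.28). The lower one in VEC-positive cells, Hipk2 (-1.05), was tested through sparse VEC-positive cells alone, the group where it is high. Of all probe sets, 8.16% were called higher and 7.22% lower with density in VEC-positive cells, and 9.1% and 7.41% in VEC-null cells. The medians with VEC were -0.01 in confluent and -0.09 in sparse cells.

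Among 6 other genes named as CDK inhibitors, Cdkn2c (p18) was higher in confluent VEC-positive cells (1.09, SE 0.14, limma adjusted p = 0.00038) and Cdkn1c (p57) lower in sparse VEC-positive cells (-1.29, SE 0.25, adjusted p = 0.0028). Cdkn1c passed the level filter through sparse VEC-null cells alone (167.4 ± 10, against group means of 39 to 52.2 in the others), so its calls come from the group that let it be tested. With density Cdkn2b (p15) fell in VEC-positive cells (-2.08, SE 0.13), where 1 of the 6 was higher and 2 lower, the other being Cdkn3 (-1.37). The shares of all probe sets there were 8.16% higher and 7.22% lower. In VEC-null cells Cdkn1c had -1.12 (SE 0.25), with the same limit, and was the single call. The medians of the 6 with VEC were 0.08 and -0.09 in confluent and sparse cells.

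The pocket proteins, E2F factors and DREAM subunits include both activators and repressors of cell cycle genes, among them the E2F factors that Rb1 binds. Of 17 tested, none passed limma's threshold with VEC in confluent cells (8 with an unadjusted p under 0.05, median 0.22), although a second probe set of E2f8 did, at 1.23. In sparse cells 4 were lower in VEC-positive cells, Lin54 (-1.801), E2f2 (-1.08), E2f8 (-1.05) and the Rb1 relative Rbl1 (-1.02). The median of the 17 there was -0.49, and 4.27% of all probe sets were called lower. With density 1 was higher in VEC-positive cells, E2f8 (1.00), and 2 were lower in VEC-null cells, Lin54 (-1.18) and E2f4 (-1.05). In sparse cells the second probe set of Lin54 passed at -1.61 and that of E2f8 had -0.62, which did not pass.

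Of the 10 tested BTG and TOB proteins and CCR4-NOT subunits, the partners of Btg2, Tob1 was higher in VEC-positive cells at both densities. Tob1, an antiproliferative relative of Btg2, rose from 985.9 ± 170 (SD, n = 2 copies) to 3376.2 ± 230 in confluent cells (1.73, SE 0.11, limma adjusted p = 6.6e-06) and from 784.5 ± 7.4 to 2890.3 ± 4.5 in sparse cells (1.82, SE 0.11, adjusted p = 3.6e-06). Its other tested probe set had 1.91 and 1.61. Prmt1 (-1.36) and Cnot6 (-1.06) were lower in sparse VEC-positive cells, and 3 other probe sets of Cnot6 did not pass. The list's medians with VEC were 0.18 in confluent and 0.14 in sparse cells. Btg1 rose with density in both lines, by 1.03 in VEC-positive and 1.44 in VEC-null cells, and Prmt1 fell in both, by 1.08 and 2.51 on the log2 scale. Btg1, which like Btg2 rose with density in VEC-null cells, had 3650.1 ± 110 when confluent against 1311.5 ± 30 when sparse. A second probe set of Btg1 passed with density in VEC-null cells (1.66) and had 0.33 in VEC-positive cells, and it was higher with VEC in sparse cells (1.58), where the representative one had 0.66 and did not pass.

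The list of cyclins and CDKs, which holds targets of p21 and p27 and also the CDK regulators Cdc25a, Cdc25b, Cdc25c and Wee1, did not move as one. Of 16 tested, 4 were higher with VEC in confluent cells, the D cyclins Ccnd2 (1.56), Ccnd1 (1.45) and Ccnd3 (1.13) and the mitotic kinase Cdk1 (1.17). In sparse cells Ccnd2 (3.77) and Ccnd1 (1.23) were higher and the inhibitory kinase Wee1 (-1.01) was lower. A further probe set of Ccnd3 had 0.03 in confluent cells. With density Ccnd1 fell in both lines (-1.76 in VEC-positive and -1.99 in VEC-null cells), Ccnd3 rose in VEC-positive cells (1.40) and Ccnd2 rose in VEC-null cells (1.40). In all, 2 were higher and 2 lower with density in VEC-positive and 1 higher and 2 lower in VEC-null cells. The medians with VEC were 0.57 in confluent and 0.14 in sparse cells, where 4.31% and 5.43% of all probe sets were called higher.

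For p27 turnover and FoxO factors, 13 genes were tested, and Akt2 was higher with VEC in confluent cells (1.09) and Fbxo5 lower in sparse cells (-1.19). With density Cks1b, a cofactor of the ligase that degrades p27, fell in VEC-positive (-1.09) and in VEC-null cells (-1.05), where Kpna2 also fell (-1.03). The medians with VEC were 0.08 and -0.02.

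E2F targets and mitosis genes, which are silenced in arrested cells, are read here as a measure of cell cycle transcripts. In confluent cells 1 of 23 E2F and S phase genes was higher in VEC-positive cells, the primase Prim1 (1.61), and 1 of 22 mitosis genes, Ccnf (1.09). These counts are near the 4.31% of all probe sets called higher there, so calls past the fold threshold do not set the lists apart. Smaller changes were common, since 13 of the 23 E2F and S phase genes and 18 of the 22 mitosis genes had an unadjusted limma p under 0.05. The medians of the lists were 0.30 and 0.60, against -0.01 for all genes. In sparse cells 9 E2F and S phase genes were lower in VEC-positive cells, led by Slbp (-1.60), Pola1 (-1.58), Cdc6 (-1.498) and Cdc45 (-1.44), with a median of -0.88. The share of all probe sets called lower there was 4.27%. None of the 22 mitosis genes passed limma's threshold there (16 with an unadjusted p under 0.05, median -0.53).

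With density in VEC-null cells, 7 mitosis genes were lower when confluent, led by Bub1 (-1.53) and Aurka (-1.37), and 2 E2F and S phase genes, Pola1 (-1.21) and Orc1 (-1.07). The share of all probe sets called lower there was 7.41%, which the count of 2 is near. In VEC-positive cells 2 E2F and S phase genes were higher when confluent, Slbp (1.30) and Fen1 (1.08), a count near the 8.16% of all probe sets, and no mitosis gene passed limma's threshold (15 with an unadjusted p under 0.05). The difference of the density responses passed, in the positive direction, for 17 of 23 E2F and S phase genes and 13 of 22 mitosis genes, with medians of 1.28 and 1.08 against 0.03 for all genes. The share of all probe sets passing in this direction was 5.91%. Top2a, a topoisomerase of dividing cells, had mean signals of 2024.4 ± 130 (SD, n = 2 copies) in sparse VEC-null, 998.1 ± 74 in confluent VEC-null, 1145 ± 130 in sparse VEC-positive and 1906.2 ± 190 in confluent VEC-positive cells. Confluent VEC-positive cells thus had the highest Cdkn1a and Btg2 signals and Top2a and Mki67 signals near those of sparse VEC-null cells, which were lowest in Btg2. Other genes of these lists differed between those 2 conditions in both directions. Means in confluent VEC-positive and sparse VEC-null cells were 2728.5 and 5644.4 for Cdc20, 448 and 956 for Cenpa and 604.9 and 1243.7 for Pola1. They were 1844.5 and 1118.3 for Ccnf and 4063.8 and 3094.5 for Espl1. Mki67, the proliferation marker, was at 2111.7 ± 130 in sparse VEC-null and 2051.4 ± 230 in confluent VEC-positive cells, and at 1262.1 ± 98 and 1265.9 ± 22 in confluent VEC-null and sparse VEC-positive cells.

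**Figure D5:**
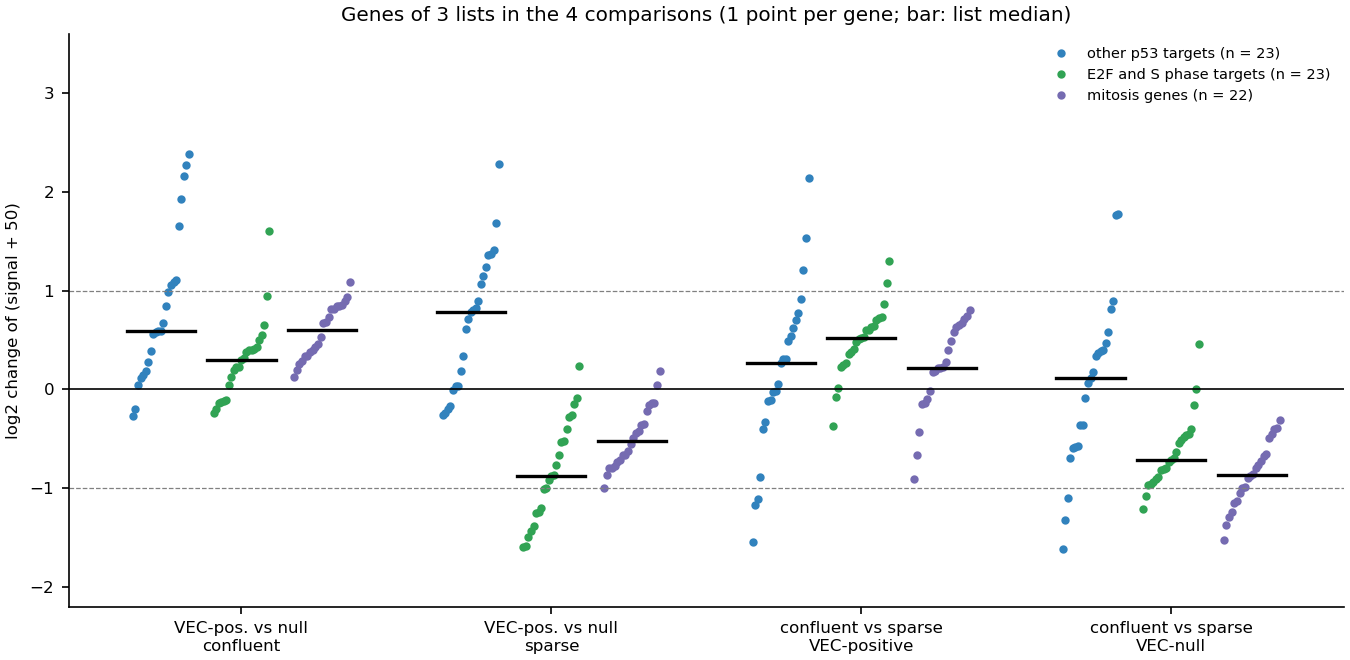
Log2 change of each tested gene of 3 lists (points) with the list median (bar) in 4 comparisons. E2F and S phase targets and mitosis genes have medians below 0 in sparse VEC-positive over VEC-null cells (-0.88 and -0.53) and in confluent over sparse VEC-null cells (-0.71 and -0.87), and other p53 targets have medians above 0 in all 4.

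Of 12 tested growth arrest specific and GADD45 genes, 3 were higher with VEC in confluent cells. Gas6, the ligand of the Axl receptor, rose from 125.4 ± 12 (SD, n = 2 copies) to 1240.6 ± 130 (2.88, SE 0.17, limma adjusted p = 2.8e-06). It passed the level filter through the VEC-positive groups alone, where it is high, with 199.6 in sparse VEC-positive and 18.6 in sparse VEC-null cells. Gadd45b rose by 2.11 (SE 0.09) and Gas7 by 1.68 (SE 0.23), and a second probe set of Gadd45b rose by 1.33. The medians with VEC were 0.35 in confluent and 0.08 in sparse cells, where 4.31% and 5.43% of all probe sets were called higher. In sparse cells Gas6 was higher (1.85) and Ndrg1 lower (-1.02). With density 3 were higher and 2 lower in VEC-positive cells and 3 higher and 5 lower in VEC-null cells. Of these 5, Gas2 (-1.05) passed the level filter through sparse VEC-null cells alone (204, against group means of 55.7 to 87.4 in the others). Slfn2, which restrains the exit from quiescence in lymphocytes, rose in both (4.35 and 4.52), and Gadd45b fell in VEC-null cells (-2.78). Slfn2 passed the level filter through the confluent groups alone, where it is high, with means of 25 and 27.2 in the sparse ones.

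Other known regulators of Cdkn1a transcription gave 21 tested genes. In confluent cells Klf4, an activator, was higher in VEC-positive cells (1.16, SE 0.13, limma adjusted p = 0.00018) and 5 were lower, led by Id3 (-1.99), Cebpb (-1.497) and Tcf4 (-1.497). The others were Myc, a repressor of Cdkn1a (-1.15), and Id1. In sparse cells 4 were higher and 3 lower, led by Zbtb17 (1.97), Irf1 (-1.79), Klf2 (1.66) and Klf4 (1.43), and of the 4 higher, Zbtb17 and Runx1 passed the level filter through sparse VEC-positive cells alone. Of 2 further probe sets of Tcf4, 1 passed in confluent cells (-1.04). Myc fell with density in both lines, by 2.55 in VEC-positive and 2.35 in VEC-null cells on the log2 scale. In all, 1 was higher and 6 lower with density in VEC-positive cells, and 4 higher and 2 lower in VEC-null cells, led by Klf2 (2.58). Of the 6 lower, Zbtb17 (-1.89) and Runx1 (-1.42 at its representative probe set) were again tested through sparse VEC-positive cells alone, the group where they are high. The medians with VEC were -0.14 and -0.11. The shares of all probe sets called higher and lower were 4.31% and 3.62% in confluent and 5.43% and 4.27% in sparse cells.

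Genes with the pattern most like that of a member were named by the distance between profiles of 4 condition means of log2(signal + 50), each centred on its own mean, among 5355 tested genes of chip A. Nearest to the representative probe set of Cdkn1a were Ephx1, an epoxide hydrolase (distance 0.636), Plcd1 (0.827), Stat6 (0.918), Mras (0.938) and Sirpa (0.964). Ephx1 had signals of 601.7, 453.2, 5233.9 and 4133.7 in sparse VEC-null, confluent VEC-null, sparse VEC-positive and confluent VEC-positive cells. Nearest to Btg2 were the ETS factor Elk3 (0.366), the kinase Mknk2 (0.395), Casp1 (0.433), Dgka (0.435) and the histone gene H1f2 (0.461). Elk3 had 238.8, 723.9, 831.1 and 1786 in the same order of conditions. Elk3, Mknk2, Dgka and Stat6 lie on chromosome 10. With 4 conditions such likeness is a description and carries no test.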

How the data were processed

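RNA of 4 conditions was hybridised to 2 arrays of each of 2 Affymetrix chips, and per the labels the authors computed MAS5 signals scaled to a target of 500. The deposited values are linear intensities, with a trimmed mean of 500.1 to 500.3 per array, so they are not divided by a median over samples. Detection calls were not used here. Gene symbols came from the platform annotation, and 21411 probe sets matched RefSeq genes (GRCm38.p6) by Entrez identifier. No column belonged to another series.

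Values were tested as log2(signal + 50) with limma 3.58.1 in R 4.3.3, per chip over all 4 conditions, with 4 residual degrees of freedom and a prior that follows the mean signal. The Benjamini-Hochberg adjustment ran over the 14246 probe sets kept on both chips (7006 and 7240). On simulated data, 98.5% of 200 probe sets changed by 2 (log2) in confluent VEC-positive cells were called, with 3 false calls among 13246 probe sets. A gene with several probe sets was represented by the one on chip A, then by the highest mean signal. Named from each list were up to 4 genes that passed with the largest change in the VEC comparisons and up to 2 in the others. The members and gene lists were chosen with earlier results of these data known. Copy numbers 1 and 2 did not pair the arrays across conditions. The number of arrays limits the precision. Alternatives changed the offset, filter, normalisation, variance trend, block, probe set and copies.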

Additional observations from a re-analysis of the deposited data

Results flagged for a closer look

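The density responses of the lines, confluent over sparse in VEC-positive minus VEC-null cells, differed by a test of the difference itself (limma) for Sesn1, by 1.98 on the log2 scale (adjusted p = 0.00013). Among other p53 targets, Ckap2 differed by 1.38 (adjusted p = 0.00042) and Fas by -1.29 (adjusted p = 0.014), although Fas passed the level filter in sparse VEC-positive cells alone, which enter this difference. Of the BTG and TOB family with its partners, Prmt1 differed by 1.43 (adjusted p = 0.00042) and Tob2 by -1.05 (adjusted p = 0.049), where its other probe set had -0.72 and did not pass. Of the E2F and S phase genes, Pola1 differed by 1.81 (adjusted p = 6.6e-05) and Mcm3 by 1.596 (adjusted p = 0.00022). Of the mitosis genes, Bub1 differed by 1.93 (adjusted p = 3.3e-05) and Top2a by 1.70 (adjusted p = 0.00011). These limma p-values rest on 2 arrays per condition, taken as copies of 1 cRNA sample, and cover hybridisation spread alone.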

How the results depend on the processing

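Of 15 member calls over the 5 comparisons, 13 passed in the same direction under every alternative run for them, and 11 of 15 that did not pass kept direction and side. The calls that did not hold were Rb1 in confluent cells, which came to 0.83 with an offset of 200 and to 1.00 less the chromosome median, and Ccng1 with density in VEC-null cells (-0.97 with an offset of 200). Rb1 was not tested under a filter at the 75th percentile. With density in VEC-positive cells, 2 members passed after quantile normalisation and less the chromosome median (Btg2 at 1.10 and 1.03), and 1 to 2 without a copy in turn. The difference of the density responses passed for 2 members after quantile normalisation (Cdkn1a at 1.19) and for 1 to 2 without a copy in turn. The change of Sesn1 with VEC in sparse cells was above 0 after quantile normalisation (0.016), without replicate 2 of sparse VEC-null cells (0.025), without replicate 1 of sparse VEC-positive cells (0.006) and less the median of its 40 neighbours (0.12, an alternative added after seeing the data), and ran from -0.143 to 0.025 without a copy in turn. The other probe set of Cdkn1a reversed its density response in VEC-null cells (0.85) and the difference of the responses (-0.78). Over the 4 cRNA samples, 0 members passed limma's threshold for density with an offset of 200 or with no filter, and 0 to 2 without a copy in turn, where 3501 probe sets of the additive fit had an unadjusted p under 0.05. Of all probe sets, an offset of 200 left 590, 689, 1305, 1444 and 1017 called in the 5 comparisons, against 1129, 1382, 2190, 2352 and 1745, and a filter at the 75th percentile, which tests fewer probe sets, left 691 and 913 in the VEC comparisons. The cause of the other changes was not tested.

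With the replicate number as a block, 1131, 1383, 2192, 2357 and 1742 probe sets passed and no member call changed. The numbers were not found to pair the samples, since over 12 pairs of same-numbered arrays the deviations correlated with r between -0.057 and 0.08.

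With each condition taken as 1 cRNA sample, line, culture and clone cannot be told apart from VEC, nor 1 culture from its density. Signals of Cdkn1b, the second probe sets of Rb1 and Sesn1, and Fas lie near or under the level filter, so their changes are weakly measured.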
